A study of Mus musculus and Sus scrofa with 12 samples.

Results

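Disp1, Smo, Sufu and Kif7 are 4 genes that carry the hedgehog signal from its release to the GLI transcription factors, chosen by name, with the pig symbols in capitals. They are 4 of the 14946 protein-coding genes that have 1 record of the same symbol in both the mouse and the pig annotation, and all 4 were found in both. The study mapped 3 histone modifications in forelimbs of wild-type mouse embryos at E11.5 and of wild-type pig embryos at day 23 of gestation (D23), by ChIPmentation, a chromatin immunoprecipitation in which a transposase adds the sequencing adapters. H3K4me3 is found at promoters, H3K27ac at active promoters and enhancers, and H3K4me1 at enhancers and promoter flanks. The labels name 2 samples for each of the 6 pairs of species and modification, 12 in all, and the deposited data are 6 lists of peak positions, 1 for each pair. The lists hold no score and no value per replicate, and the read depth is unknown, so no difference below could be set against a spread between embryos and none was tested. For pig H3K4me1 the series' design text gives 1 biological replicate where the labels name 2 samples. Each library is a whole forelimb, in which a mark of fewer cells and a weaker mark in every cell cannot be told apart.

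Hedgehog proteins are lipid-modified ligands. In the limb bud, Sonic hedgehog made at the posterior margin patterns the digits and sustains growth. Disp1 is a membrane protein that releases the ligand from the cells that make it. In cells that receive it, the ligand relieves the block that the receptor Patched puts on Smo, a membrane protein that then collects in the primary cilium. Sufu binds GLI proteins and holds them back, and Kif7, a kinesin at the tip of the cilium, is needed for their correct traffic and processing. Loss of Sufu or Kif7 in mice disturbs digit patterning, and loss of Smo or Disp1 stops or limits signalling.

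The 4 genes carried promoter marks in both species, with a gap at pig SUFU. A mark was assigned to a gene if a peak came within 1 kb of a transcription start site (TSS) that RefSeq annotates for it. H3K4me3 marked all 4 mouse and all 4 pig genes, against 65% of all coding genes in mouse and 64.9% in pig. H3K27ac marked 4 of 4 in mouse and 3 of 4 in pig, against 41.6% of all coding genes in mouse and 46.7% in pig, and the gene without it was SUFU. H3K4me1 marked 3 of 4 in mouse, all but Sufu, and 2 of 4 in pig, DISP1 and KIF7, against 54.7% in mouse and 61.3% in pig. With 4 genes these counts describe the members and do not set them apart from other genes. Away from promoters, the mouse genes with 200 kb on each side held 22 distal H3K27ac peaks. A sequence match at the pig gene was found for 14 of them, against 46.5% of such peaks over all ortholog windows, and 1 lay in a pig H3K27ac peak, against 6.37%. A peak's match counted as lying in a mark if any alignment of that peak overlapped the mark by 1 bp or more. Disp1 held the most distal peaks of the 4 in either species, with 10 in mouse and 13 in pig, and pig KIF7 held 0.

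Disp1 lies on mouse chr1:183086264-183221537 (GRCm38, minus strand) and DISP1 on pig chr10:11526353-11709888 (Sscrofa11.1, plus strand). The RefSeq annotation gives the gene 135 kb and 3 TSSs in mouse, and 184 kb and 11 TSSs in pig. Sufu lies on mouse chr19:46396896-46488804 (plus strand) and SUFU on pig chr14:113500001-113628064 (plus strand), spanning 91.9 kb in mouse but 128 kb in pig, and 1 TSS is annotated in each. Kif7 lies on mouse chr7:79698098-79715772 (minus strand) and KIF7 on pig chr7:55200591-55220237 (minus strand), spanning 17.7 kb with 5 TSSs in mouse and 19.6 kb and 3 TSSs in pig. The coordinates of Smo are given with its results. All offsets below count from the annotated 5′ end of the gene in the direction of transcription, so that a negative offset lies upstream.

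The promoter sequences show what the peak positions rest on. For each mouse promoter, RefSeq's 300 bases from 250 before to 50 after a start in GRCm38 were aligned with the pig gene and its flanks by blastn. The Sufu pair is shown because its pig match lies inside the gene, away from the annotated 5′ end. The pair at the internal promoter of Disp1 is shown because its marks differ between species, and the Kif7 pair as a promoter marked alike in both. Each is the aligned stretch written 5′ to 3′ on the gene's strand, with bases that are identical in the other species in capitals.
mouse Sufu promoter, GRCm38 chr19:46396718-46396937, + strand, 220 bases: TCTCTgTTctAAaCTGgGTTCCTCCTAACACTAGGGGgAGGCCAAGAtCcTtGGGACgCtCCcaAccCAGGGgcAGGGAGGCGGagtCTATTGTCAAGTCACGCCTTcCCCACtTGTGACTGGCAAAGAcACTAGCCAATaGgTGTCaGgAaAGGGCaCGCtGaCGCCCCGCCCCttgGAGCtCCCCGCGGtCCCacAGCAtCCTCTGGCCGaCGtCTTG
pig SUFU promoter, Sscrofa11.1 chr14:113500465-113500683, + strand, 219 bases: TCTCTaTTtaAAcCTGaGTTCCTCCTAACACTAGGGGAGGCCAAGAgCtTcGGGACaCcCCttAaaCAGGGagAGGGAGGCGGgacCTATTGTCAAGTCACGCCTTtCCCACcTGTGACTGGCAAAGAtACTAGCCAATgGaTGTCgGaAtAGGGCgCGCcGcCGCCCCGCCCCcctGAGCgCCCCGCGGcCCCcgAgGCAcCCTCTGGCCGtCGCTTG
mouse Disp1 internal promoter, GRCm38 chr1:183147549-183147807, - strand, 259 bases: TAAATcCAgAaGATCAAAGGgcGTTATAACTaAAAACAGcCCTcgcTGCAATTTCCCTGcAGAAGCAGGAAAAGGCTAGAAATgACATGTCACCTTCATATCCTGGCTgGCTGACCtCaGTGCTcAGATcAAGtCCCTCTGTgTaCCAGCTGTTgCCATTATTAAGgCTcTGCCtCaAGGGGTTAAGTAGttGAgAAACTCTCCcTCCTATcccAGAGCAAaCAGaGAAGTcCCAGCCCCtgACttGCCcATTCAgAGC
pig DISP1 internal promoter, Sscrofa11.1 chr10:11638908-11639168, + strand, 261 bases: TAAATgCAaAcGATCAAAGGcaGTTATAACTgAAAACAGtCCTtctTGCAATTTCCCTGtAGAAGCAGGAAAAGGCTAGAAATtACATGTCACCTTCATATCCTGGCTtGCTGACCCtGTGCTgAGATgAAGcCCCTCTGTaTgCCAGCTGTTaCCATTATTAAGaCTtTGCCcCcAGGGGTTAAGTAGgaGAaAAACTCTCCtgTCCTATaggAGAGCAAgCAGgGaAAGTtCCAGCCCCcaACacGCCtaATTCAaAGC
mouse Kif7 promoter, GRCm38 chr7:79715658-79715853, - strand, 196 bases: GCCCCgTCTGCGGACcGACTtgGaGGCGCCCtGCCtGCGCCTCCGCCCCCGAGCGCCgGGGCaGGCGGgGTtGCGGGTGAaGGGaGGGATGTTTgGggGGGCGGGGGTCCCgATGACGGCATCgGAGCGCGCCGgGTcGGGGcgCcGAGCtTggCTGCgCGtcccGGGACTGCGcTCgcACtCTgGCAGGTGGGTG
pig KIF7 promoter, Sscrofa11.1 chr7:55220057-55220255, - strand, 199 bases: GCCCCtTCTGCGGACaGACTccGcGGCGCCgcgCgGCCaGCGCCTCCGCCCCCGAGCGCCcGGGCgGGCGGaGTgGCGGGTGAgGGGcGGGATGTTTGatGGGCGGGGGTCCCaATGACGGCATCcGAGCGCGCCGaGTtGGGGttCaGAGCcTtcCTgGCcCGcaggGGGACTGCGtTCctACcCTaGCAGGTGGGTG

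The Sufu alignment ran over 221 columns with 179 identical bases (81.0%). The alignment at the internal Disp1 promoter ran over 262 columns with 218 identical bases (83.2%). The Kif7 alignment ran over 200 columns with 160 identical bases (80%). The mouse Smo promoter also matched at the pig gene, over 191 columns with 151 identical bases (79.1%), centred at -0.451 kb of the annotated pig 5′ end. The main mouse Disp1 promoter window had no alignment at an E value of 1e-5 or lower. The whole mouse H3K4me3 peak over it did align with the pig H3K4me3 peak of DISP1, over 356 columns at 66.0% identity.

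The mouse promoters differed in base composition. The CpG ratio is the number of CG dinucleotides over the number that the C and G content would give. It was 0.70 at the 5′ end of mouse Disp1 with 58.7% G and C, and 0.217 at the internal Disp1 promoter with 50.7%. Mouse Smo had 0.504 with 67.7%, Sufu 0.506 with 56.3%, and Kif7 0.757 with 74% G and C. The median over 32851 mouse promoters was 0.384 with 52.7%. Of these 5 mouse windows, the internal Disp1 promoter alone lay below the median ratio, and it had the highest identity with pig of the 4 that matched.

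Sufu showed the difference at the promoter. In mouse, 1 H3K4me3 peak of 5086 bp reached from -2.76 kb to +2.32 kb and spanned the start of Sufu and that of its divergent neighbour Actr1a, a dynactin subunit gene whose start lay at -1.155 kb. That peak was wider than those of 96.6% of the 14158 mouse coding genes with H3K4me3, whose median width was 3502 bp. The mouse H3K27ac peak of 2340 bp began at +0.013 kb and ended at +2.35 kb, so it covered the Sufu side alone and came no nearer than 1 kb to the Actr1a start. H3K4me1 flanked both, from -4.14 kb to -2.13 kb and from +1.154 kb to +4.625 kb, which left Sufu just outside the limit of 1 kb. In pig, H3K4me3 was called as 2 peaks with a gap at the annotated 5′ end. One of 1276 bp ran from -2.30 kb to -1.03 kb at ACTR1A and the other of 2044 bp from +0.457 kb to +2.5 kb in SUFU. The only pig H3K27ac peak nearby, of 940 bp, ran from -2.03 kb to -1.09 kb, on the ACTR1A side. H3K27ac thus lay on opposite sides of the shared promoter region in the lists of the 2 species.

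The annotated start of pig SUFU affects how that reads. The mouse Sufu promoter printed above matched pig sequence centred at +0.573 kb of the annotated pig 5′ end, inside the pig H3K4me3 peak. With the pig start placed there, the nearest pig H3K27ac peak was 1.66 kb away instead of 1.09 kb, and the nearest H3K4me1 peak 0.93 kb instead of 1.503 kb. H3K27ac at a TSS in mouse and not in pig, as for Sufu, was found for 9.57% of the 14946 orthologs. A window of 2.5 kb would count the ACTR1A-side peak for SUFU and give 4 of 4 in pig.

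**Figure D1:**
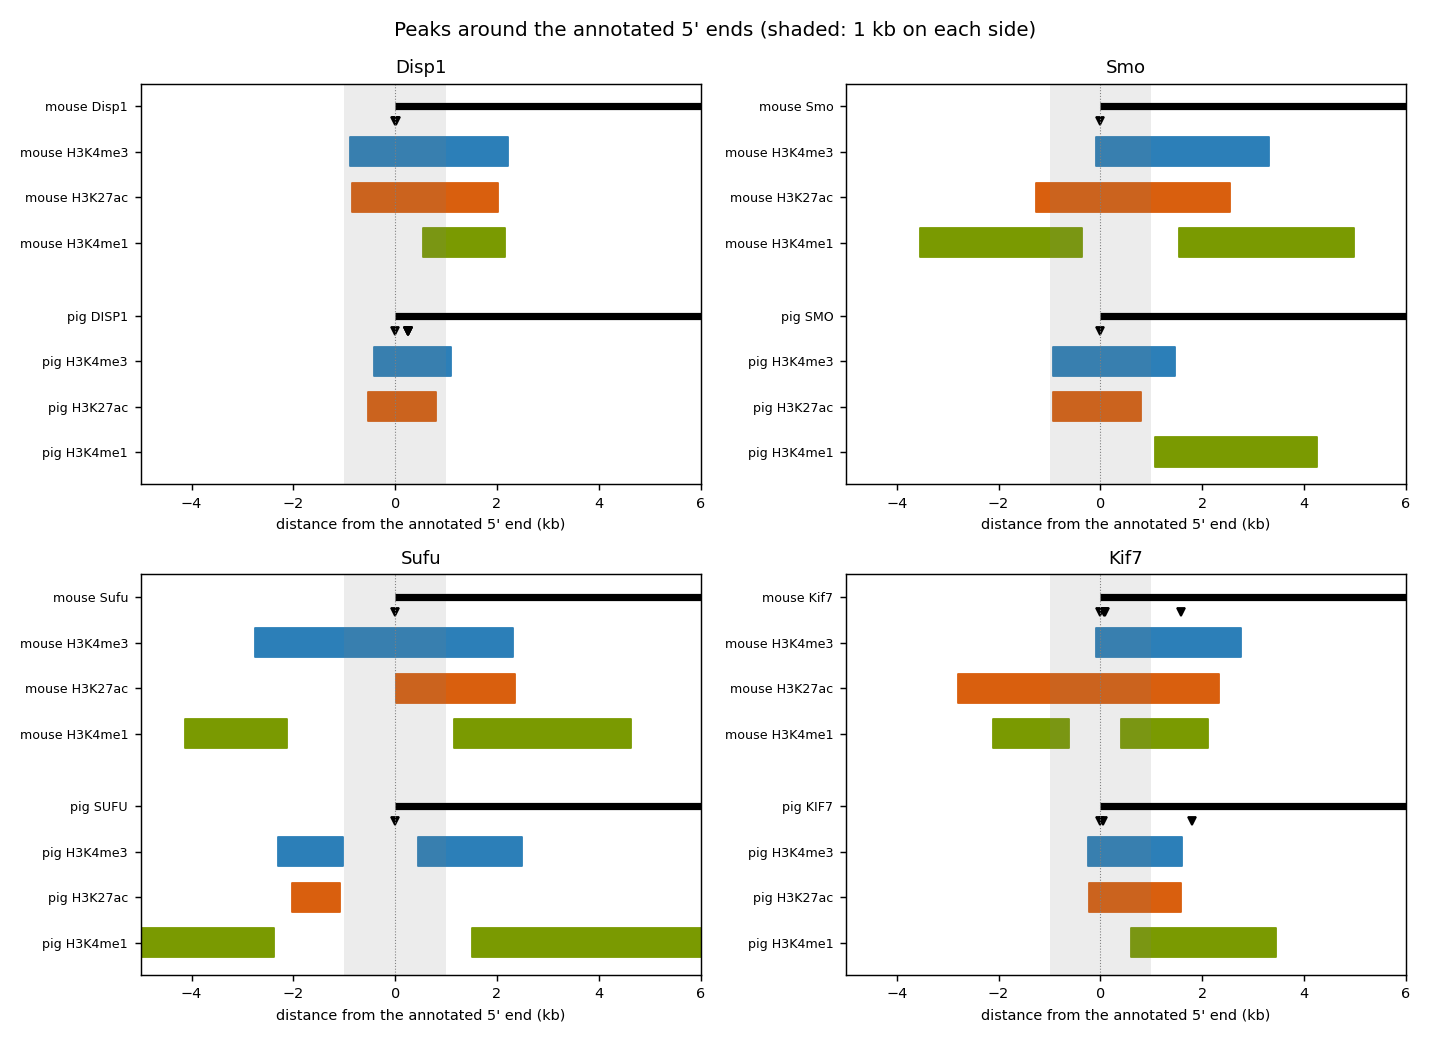
Peak extents around the annotated 5′ ends of the 4 genes, with distance in kb on the horizontal axis and mouse rows above pig rows; bars are peaks, black lines the gene, triangles annotated TSSs, and shading the 1 kb on each side. At Sufu, the mouse H3K4me3 peak of 5086 bp faces 2 separate pig peaks, and H3K27ac lies right of the 5′ end in mouse and left of it in pig.

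In mouse, 2 starts of Disp1 were marked. At its 5′ end, H3K4me3 of 3113 bp ran from -0.896 kb to +2.22 kb, H3K27ac of 2855 bp from -0.839 kb to +2.015 kb, and H3K4me1 of 1602 bp from +0.548 kb to +2.15 kb. In pig, H3K4me3 of 1519 bp ran from -0.413 kb to +1.105 kb and H3K27ac of 1348 bp from -0.538 kb to +0.809 kb, while the nearest H3K4me1 peak was 6.275 kb from the 5′ end. The 5′ ends therefore shared H3K4me3 and H3K27ac and differed in H3K4me1.

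The internal mouse start of Disp1, at +74.0 kb, lay under an H3K4me3 peak of 4245 bp, wider than the peak at the 5′ end and than the peaks of 85.2% of marked mouse coding genes. It also carried H3K27ac of 1745 bp and H3K4me1 of 1085 bp. Its pig match was centred at +112.7 kb, next to an annotated pig start at +112.8 kb. There, H3K4me3 of 1074 bp and H3K4me1 of 3311 bp were called, and the nearest H3K27ac peak was 8.155 kb from the match. The matched starts thus carried H3K4me3 and H3K4me1 in both species and H3K27ac in mouse. A second pig H3K4me3 peak of 782 bp followed from +114.4 kb to +115.2 kb within the same H3K4me1 peak.

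Pig DISP1 had further marked sites inside the gene. An H3K4me3 peak of 1380 bp from +65.8 kb to +67.2 kb overlapped an H3K27ac peak of 1458 bp and an H3K4me1 peak, at no annotated TSS, and had no match in the mouse window. H3K27ac of 657 bp lay 0.646 kb from an annotated pig start at +74.5 kb that had no H3K4me3 within 7.28 kb. The 3 annotated pig starts furthest downstream, at +122.8 kb, +147.7 kb and +153.3 kb, had H3K4me1 at 0.127 kb or less and no H3K4me3 or H3K27ac nearer than 7.63 kb. The H3K4me1 that counted DISP1 as marked lay at such internal starts and not at the 5′ end.

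Smo lies on mouse chr6:29735497-29761366 (plus strand) and SMO on pig chr18:19450730-19478796 (minus strand), 25.9 kb in mouse and 28.1 kb in pig. In mouse, H3K4me3 of 3393 bp ran from -0.078 kb to +3.31 kb and H3K27ac of 3822 bp from -1.27 kb to +2.55 kb. In pig, H3K4me3 of 2401 bp ran from -0.935 kb to +1.465 kb and H3K27ac of 1726 bp from -0.926 kb to +0.799 kb. Counted from the annotated 5′ ends, the pig H3K4me3 peak extended further upstream than the mouse one and less far into the gene. The mouse Smo promoter matched pig sequence centred at -0.451 kb, so these 5′ ends do not align and the offsets are not at like positions.

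H3K4me1 flanked mouse Smo on both sides, with 3174 bp from -3.54 kb to -0.37 kb and 3435 bp from +1.54 kb to +4.97 kb. In pig it was called on the gene side only, with 3190 bp from +1.071 kb to +4.26 kb. From the annotated 5′ end this pig peak began just past the limit of 1 kb, so the count of SMO as unmarked by H3K4me1 rests on that limit. From the centre of the pig match of the mouse Smo promoter, the nearest H3K4me1 peak was further off, at 1.522 kb. H3K4me1 in mouse and not in pig was found for 13.9% of orthologs. The second annotated mouse start of Smo, at +15.7 kb, had H3K4me1 within 0.118 kb, no H3K4me3 within 12.4 kb and an H3K27ac peak at 2.62 kb. An H3K4me3 peak with H3K4me1 and no annotated TSS lay upstream of Smo in both species, with 2684 bp from -18.2 kb to -15.5 kb in mouse and 1895 bp from -15.4 kb to -13.5 kb in pig.

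Kif7 was marked alike in both species at its start. In mouse, H3K4me3 of 2840 bp ran from -0.08 kb to +2.76 kb and in pig of 1857 bp from -0.246 kb to +1.61 kb. Mouse H3K27ac of 5121 bp ran from -2.79 kb to +2.33 kb and was wider than the peaks of 92.8% of the 9065 mouse coding genes with H3K27ac. Pig H3K27ac of 1806 bp ran from -0.23 kb to +1.575 kb and was wider than those of 66.1% of the 9639 pig coding genes with H3K27ac. The mouse peak thus reached upstream of the gene, over an H3K4me1 peak of 1509 bp from -2.12 kb to -0.612 kb that pig did not have. H3K4me1 also lay inside the gene in both, from +0.407 kb to +2.10 kb in mouse and from +0.603 kb to +3.46 kb in pig. The mouse start at +6.70 kb had no peak of any of the 3 marks within 3.94 kb.

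Widths compare only within a species. Over the whole lists, median widths in mouse were 3308 bp for H3K4me3, 2928 bp for H3K27ac and 3392 bp for H3K4me1, and in pig they were 1679 bp, 1164 bp and 3033 bp in the same order. The narrower pig H3K4me3 and H3K27ac peaks at these genes go with that difference between the lists. Pig H3K4me3 and H3K27ac were also the libraries sequenced at 50 bp rather than 100 bp, which cannot be told apart from species, and its part in the widths was not tested.

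**Figure D2:**
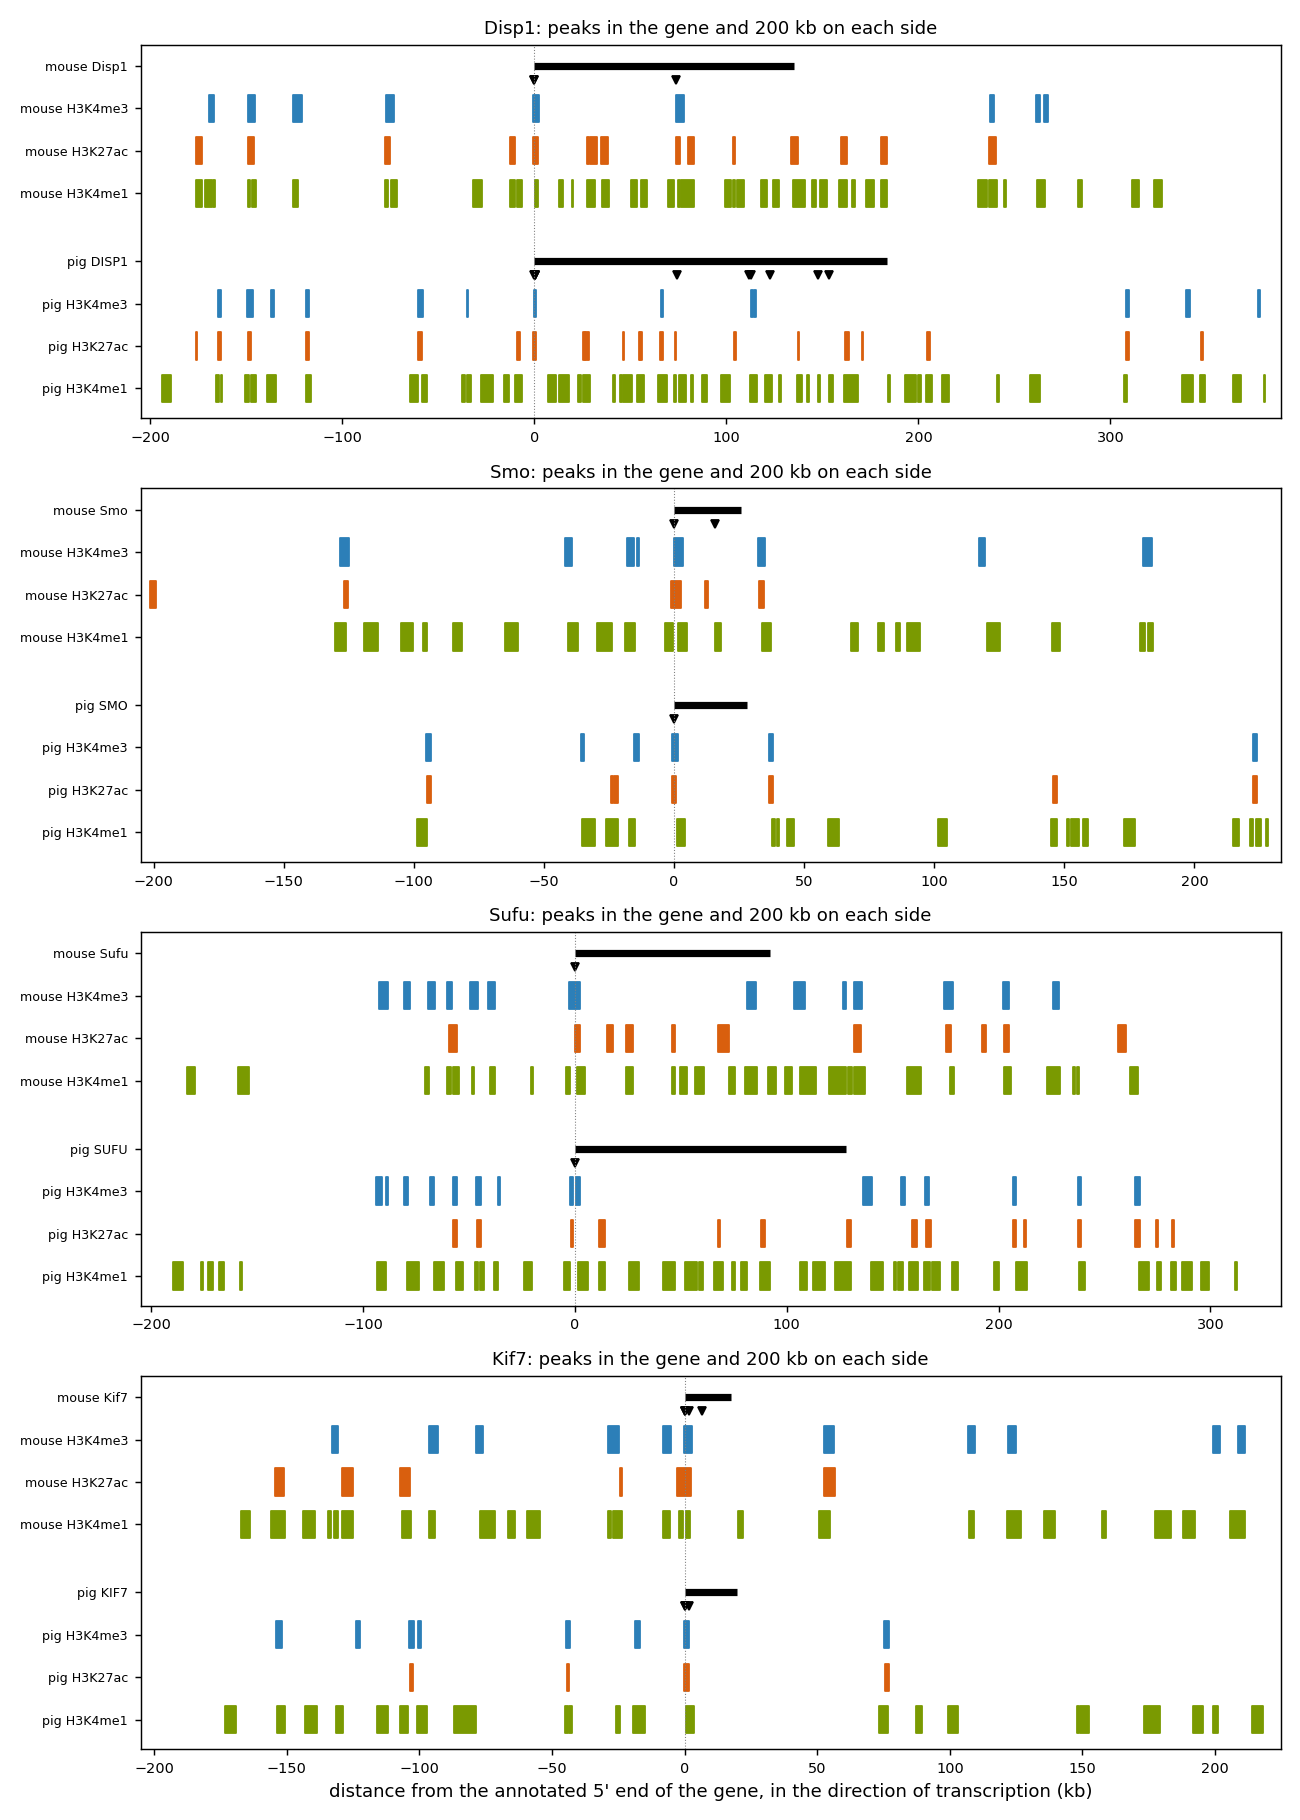
All peaks of the 3 modifications in each gene and 200 kb on each side, with distance from the annotated 5′ end in kb on the horizontal axis and mouse rows above pig rows; black lines are the gene, triangles annotated TSSs, bars peaks, with narrow ones widened to stay visible. Disp1 carries H3K27ac along its introns in both species, and pig KIF7 has 4 H3K27ac peaks in all, each with H3K4me3.

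Distal H3K27ac peaks, those that overlapped neither the 1 kb on each side of any annotated TSS nor an H3K4me3 peak, were counted in each gene and 200 kb on each side. Disp1 had 10 in mouse and 13 in pig, Smo 2 in mouse and 2 in pig, Sufu 6 in mouse and 8 in pig, and Kif7 4 in mouse and 0 in pig. The median over orthologs was 2 in mouse and 3 in pig. Disp1 exceeded 98.9% of orthologs in mouse and 96.9% in pig by this count, and Sufu 90.5% in mouse and 88.1% in pig. Smo and the pig KIF7 locus were at or below the median. The windows follow the length of each gene, 535 kb in mouse and 584 kb in pig for Disp1 against 418 kb in mouse and 420 kb in pig for Kif7.

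The covered length gave a like order in mouse. Distal H3K27ac covered 5.11% of the mouse Disp1 window and 2.02% of the pig one, and 3.68% of the mouse Sufu window and 2.20% of the pig one. For Smo it covered 0.541% in mouse and 0.553% in pig, and for Kif7 2.77% in mouse. The ortholog medians were 1.27% in mouse and 0.60% in pig. The distal peaks of Disp1 had a median width of 3005 bp in mouse and 565 bp in pig, against 2604 bp over all mouse and 891 bp over all pig distal peaks.

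**Figure D3:**
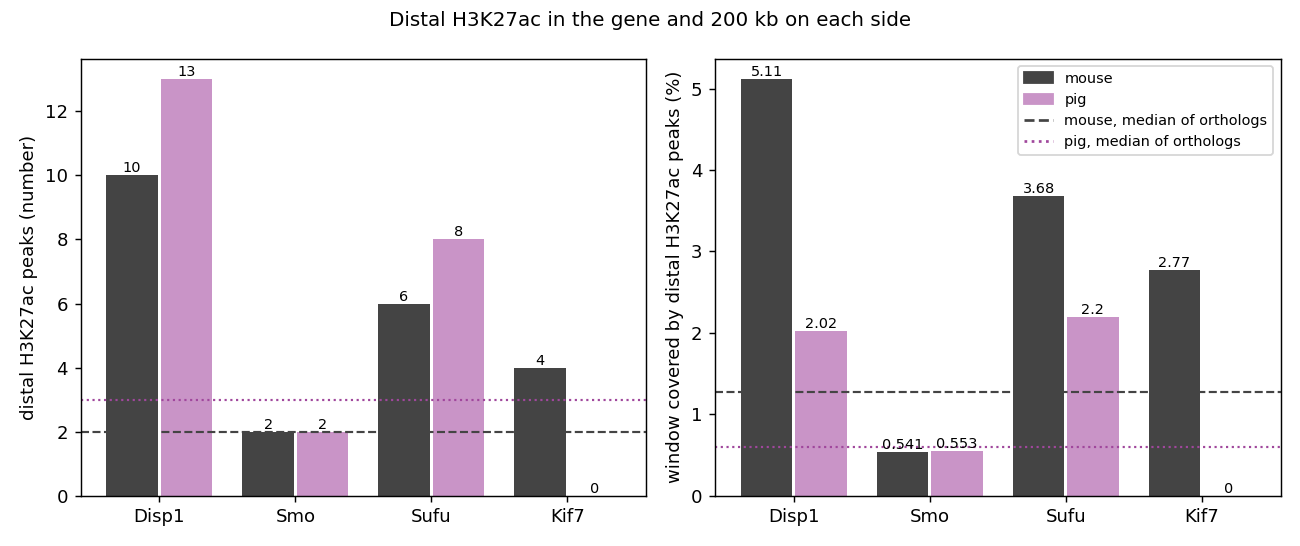
Number of distal H3K27ac peaks (left) and share of the window they cover in percent (right) for each gene, with mouse bars left of pig bars; dashed and dotted lines are the medians over 14946 orthologs in mouse and pig. Disp1 and Sufu stand above the lines in both species, with 10 and 6 peaks in mouse and 13 and 8 in pig.

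At Disp1, 6 of the 10 mouse distal peaks and 9 of the 13 pig ones touched the gene, and Disp1 was the nearest coding gene of 8 in mouse and 11 in pig. All 10 mouse peaks and 10 of the 13 pig peaks overlapped H3K4me1. No share over all distal H3K27ac peaks is given here for such overlaps. The H3K4me1 lists differ in size, with 69962 peaks in mouse and 103373 in pig. The overlap counts at each gene therefore describe its peaks alone. Early in the gene, in introns, both species had a narrow peak followed by a wide one. In mouse these were 289 bp at +27.6 kb and 3685 bp from +28.7 kb to +32.4 kb, and in pig 335 bp at +25.35 kb and 2221 bp from +26.5 kb to +28.7 kb. They lay at like distances from the start, but no sequence match joined them: the wide mouse peak matched pig sequence at +42.1 kb, over 481 columns at 67.2% identity. That alignment overlapped the edge of a pig H3K4me1 peak by 25 bp and lay mostly outside it. Of its 2 further alignments, 1 at +44.4 kb was unmarked and 1 at +46.5 kb lay wholly in pig H3K4me1, 23 bp from a pig H3K27ac peak. Neither pig peak had a match in mouse.

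The other mouse Disp1 peaks with a match went to pig sequence without H3K27ac, with 1 exception. The peak from +80.005 kb to +83.1 kb matched at +121.3 kb (485 columns, 68.9%) and that from +159.5 kb to +163.0 kb matched at +206.3 kb (175 columns, 78.3%), both wholly in pig H3K4me1. The match at +206.3 kb came within 39 bp of the pig distal H3K27ac peak centred at +205.3 kb, which it did not overlap. The 3861 bp peak from +133.4 kb to +137.3 kb overlapped the end of the gene, and its aligned stretch covered mouse exon sequence. The match, of 1891 columns at 75.5%, lay at +182.6 kb with none of the 3 pig marks. The peak nearest to the neighbour Taf1a, from -176.2 kb to -173.25 kb, matched at -166.9 kb (187 columns, 84.5%), also unmarked. That alignment too covered mouse exon sequence.

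The exception lay upstream of the gene. The mouse peak of 2621 bp from -12.7 kb to -10.1 kb matched the pig peak of 1121 bp from -8.855 kb to -7.735 kb, and both overlapped H3K4me1. Its aligned stretch is printed because no other alignment at the 4 genes joined distal H3K27ac peaks of both species, with identical bases in capitals.
mouse Disp1 upstream peak, GRCm38 chr1:183233605-183233730, - strand, 126 bases: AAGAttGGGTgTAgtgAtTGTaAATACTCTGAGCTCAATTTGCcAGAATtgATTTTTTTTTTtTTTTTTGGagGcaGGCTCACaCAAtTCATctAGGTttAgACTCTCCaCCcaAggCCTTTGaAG
pig DISP1 upstream peak, Sscrofa11.1 chr10:11517885-11518013, + strand, 129 bases: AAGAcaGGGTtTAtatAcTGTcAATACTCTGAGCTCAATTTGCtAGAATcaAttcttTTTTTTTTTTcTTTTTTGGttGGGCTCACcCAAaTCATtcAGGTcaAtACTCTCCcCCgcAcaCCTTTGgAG

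That alignment had 131 columns with 97 identical bases (74.0%), and part of it is a run of T in both species. It was not found at an E value of 1e-20. The pair thus rests on position and on a short, partly repetitive alignment.

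At Sufu, all 6 mouse distal peaks had a match in the pig window, none in pig H3K27ac. The 4 intronic mouse peaks began at +15.1 kb, +24.2 kb, +45.9 kb and +67.7 kb, with widths of 2931, 3373, 1390 and 5138 bp. Their matches lay at +23.4 kb, +43.0 kb, +81.1 kb and +106.8 kb in pig, with 67.8%, 72.0%, 76.5% and 69.1% identity. The match at +23.4 kb was unmarked in pig and the other 3 lay wholly in H3K4me1. The mouse peaks centred at +193.05 kb and +258.2 kb lay outside the gene, nearest to Wbp1l and Cyp17a1. In both the best alignment covered mouse exon sequence. They matched at +228.0 kb, unmarked in pig, and at +297.45 kb, in pig H3K4me1. Pig SUFU had 3 distal H3K27ac peaks of its own in the gene, from +11.4 kb, +67.6 kb and +88.0 kb. The peak from +11.4 kb matched mouse sequence at +9.79 kb with none of the 3 mouse marks, and the peak from +88.0 kb, which covers an exon, matched unmarked mouse sequence at +53.0 kb with 93.8% identity over 161 columns. H3K4me1 overlapped 3 of the 6 mouse peaks and all 8 pig peaks, again without a share over all distal peaks to set them against. Sufu introns held distal H3K27ac in both species, at sequences that did not match each other.

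An H3K4me3 peak of 4396 bp in a mouse Sufu intron, from +81.0 kb to +85.4 kb, had no annotated TSS and no H3K27ac. It aligned with pig sequence at +119.2 kb over 971 columns at 75.7% identity, where pig had none of the 3 marks. Its other 4 alignments, centred from +115.3 kb to +117.3 kb, lay in a pig H3K4me1 peak, without H3K4me3 or H3K27ac. Downstream of the gene, an H3K4me3 peak with H3K27ac and H3K4me1 and no annotated TSS was called from +131.7 kb to +135.7 kb in mouse and from +165.5 kb to +167.2 kb in pig, and the nearest coding gene was Trim8 in both. A pig distal H3K27ac peak of 2040 bp from +159.2 kb matched mouse sequence at +127.0 kb (476 columns, 77.9%), which lay in mouse H3K4me3 and H3K4me1 without H3K27ac.

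Distal peaks were few at Smo and Kif7. Of the 2 mouse Smo peaks, 1 of 1230 bp lay in an intron from +11.9 kb to +13.1 kb and had no match in pig, and the other lay across the edge of the window, nearest to Irf5. Neither overlapped H3K4me1. The 2 pig peaks, of 873 and 1493 bp, lay from -24.4 kb to -21.5 kb, nearest to TSPAN33, overlapped H3K4me1, and both matched mouse sequence in H3K4me1, centred at -27.4 kb and -24.7 kb. The upstream site of pig SMO with H3K27ac was thus a mouse site with H3K4me1 and no H3K27ac. For the pig peak of 1493 bp, the best alignment covered exon sequence.

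At Kif7, the 4 mouse peaks lay upstream, nearest to Anpep, Mesp2 and Pex11a, and none was nearest to Kif7. The 3 wide ones, of 3548, 3913 and 3726 bp, began at -154.5 kb, -129.0 kb and -107.3 kb. Matches were found for 2 of these, and in both the best alignment covered mouse exon sequence. The peak from -129.0 kb matched unmarked pig sequence at -145.5 kb. The peak from -107.3 kb matched at -131.4 kb over 167 columns, overlapping the edge of a pig H3K4me1 peak by 34 bp, and a further alignment of 97 columns lay wholly inside that peak. Within 100 kb of the gene mouse had 1 distal peak, of 374 bp. The pig window held 4 H3K27ac peaks, all with H3K4me3: at KIF7, at TICRR, at PEX11A and WDR93, and at a site from -103.6 kb to -102.3 kb with no annotated TSS.

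Over the 4 genes, 14 of 22 mouse distal peaks (63.6%) had a sequence match in the pig window, against 46.5% over the windows of all orthologs. The match lay in pig H3K27ac for 1 of 22 (4.55%), against 6.37%, and in H3K27ac or H3K4me1 for 9 of 22 (40.9%), against 22.6%. In the other direction, 8 of 23 pig peaks (34.8%) matched the mouse window, against 34.4%, and 1 of 23 (4.35%) in mouse H3K27ac, against 5.86%. The shares in H3K27ac were close to those of all orthologs in both directions. The shares with a match and in either mark were higher in mouse, mostly through Sufu with 6 of 6 and Disp1 with 6 of 10. These counts include the mouse peaks at Disp1, Sufu and Kif7, and the pig peaks at Disp1, Smo and Sufu, whose best alignment covered exon sequence. A peak counts once for each window it lies in, so neighbouring windows share peaks.

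**Figure D4:**
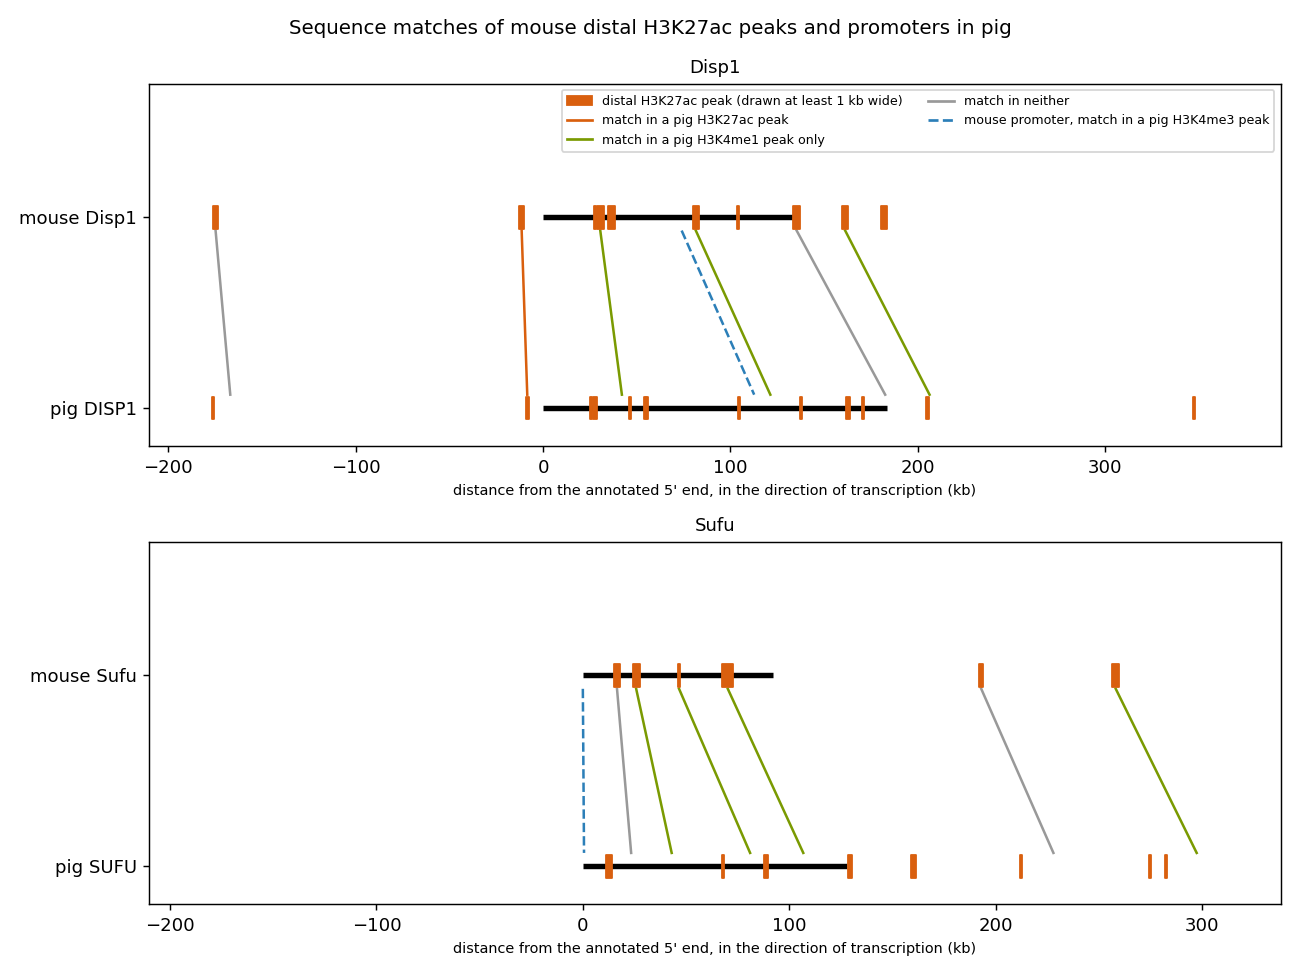
Distal H3K27ac peaks (orange boxes) of mouse above and pig below at Disp1 and Sufu, with distance from the annotated 5′ end in kb on the horizontal axis; lines join each matched mouse peak, and each matched mouse promoter (dashed), to its best alignment in pig, coloured by the pig mark that any of its alignments overlapped. Of 12 matched peaks at these genes, 1 line ends in a pig H3K27ac peak, at -8.40 kb of DISP1.

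The GLI motif GACCACCCA, searched on both strands, was in no promoter window of 300 bases and no distal H3K27ac peak of the 4 genes in either species. The pig windows lay at the annotated 5′ ends alone. They left out the pig matches of the mouse Sufu and Smo promoters and of the internal Disp1 promoter, and held only part of the Kif7 match. The exact motif was in 0.253% of 32851 mouse promoters and 0.247% of 20654 pig ones. The looser GACCNCCCA, which includes the exact motif, was in none of the promoter windows of the 4 genes, against 0.977% of all in mouse and 1.12% in pig. It occurred once in the mouse and once in the pig distal peaks of Sufu. Over all distal H3K27ac peaks the exact motif was found at 0.00926 per kb in mouse and 0.0131 per kb in pig, and the looser one at 0.0257 per kb in mouse and 0.0485 per kb in pig. The single looser match at Sufu comes to 0.0553 per kb in mouse and 0.0861 per kb in pig. Counts this small do not set the 4 genes apart. A match to such letters is a description of the sequence and not a binding site.

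The neighbourhood was largely shared. Other coding genes were counted if any part of the gene overlapped the window, also where their TSS lay outside it. At Disp1 they numbered 8 in mouse and 10 in pig, 6 of them the same. At Smo they numbered 5 in mouse and 5 in pig, all the same. At Sufu there were 12 in mouse and 14 in pig, 12 the same, and at Kif7 9 in mouse and 10 in pig, 9 the same. The change at Disp1 lay downstream, where Tlr5 and Susd4 were among the mouse genes and WDR64 and CHML among the pig ones.

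The promoter marks were also read at 32 other genes of the pathway. The 2 species had the same state, marked or unmarked in both, for 93.8% of them in H3K4me3, against 89.7% of the 14946 orthologs. For H3K27ac the share was 87.5%, against 77.4%, and for H3K4me1 62.5%, against 68.6%. Of the 32, H3K4me3 lay at 31 in mouse and 31 in pig, 30 in both, with Dhh in mouse only and Ihh in pig only, both hedgehog ligands. H3K27ac lay at 19 in mouse and 21 in pig, 18 in both. It was at Iqce, part of the ciliary EVC complex, in mouse only, where the nearest pig peak was 11.035 kb away. Genes with it in pig only included Hhip, a ligand-binding inhibitor, and Lrp2, an endocytic receptor, with the nearest mouse peaks at 79.0 kb and 126.9 kb. H3K4me1 lay at 25 in mouse and 23 in pig, 18 in both. Of 10 ciliary transport genes, 10 in mouse and 10 in pig had H3K4me3, 7 in mouse and 9 in pig H3K27ac, and 4 in mouse and 8 in pig H3K4me1.

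Most forelimb marker genes were marked in both species. Of the 6 genes listed for forelimb mesenchyme, 6 in mouse and 5 in pig had H3K27ac, and the same numbers had H3K4me3. Pig PRRX1 counted as without either, with the nearest H3K27ac peak at 1.174 kb and the nearest H3K4me3 peak at 1.081 kb. Its count thus rests on the limit of 1 kb. So do the mouse H3K27ac counts of Prrx1 and Hand2, with peaks at 0.923 kb and 0.952 kb, just inside it. Of the 3 hindlimb genes, 0 in mouse and 0 in pig had H3K27ac, while all 3 had H3K4me3 in each species. H3K4me1 lay at 5 mouse and 4 pig forelimb genes and at 0 mouse and 2 pig hindlimb genes. Markers of other cells were read for H3K4me3, H3K27ac and H3K4me1. H3K4me3 was called in mouse at all 3 blood, all 3 endothelial and all 3 ectoderm genes, and in pig at 0 blood, 1 endothelial and 1 ectoderm gene. It marked 1 mouse and 2 pig genes of the 2 neuron genes found in both annotations, with Neurod1 in pig only, and all 3 muscle precursor genes in mouse and all 3 in pig. H3K27ac was called in mouse at 1 blood gene, Klf1, and in pig at none, and at no endothelial or neuron gene in either species. Of the ectoderm genes, Trp63 had H3K27ac in mouse and Epcam in pig, and of the muscle precursor genes, Myf5 in mouse alone. Of the 3 liver genes, Apoa2 had H3K4me3 and H3K27ac in mouse and none had either in pig. H3K4me1 lay at 1 blood gene in mouse and 1 in pig, and at 0 mouse and 2 pig endothelial genes. It lay at 1 mouse and 2 pig ectoderm genes, 2 mouse and 3 pig muscle precursor genes, and 2 mouse and 0 pig liver genes. Both neuron genes had it in each species. The part of these cells in the differences at the 4 genes was not tested.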

How the data were processed

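Forelimbs of wild-type mouse embryos at E11.5 and wild-type pig embryos at D23 were profiled by ChIPmentation with antibodies against H3K4me3, H3K27ac and H3K4me1. Per the labels' protocols and the series' design text, the crosslinker was 1% formaldehyde, each reaction took 1 µg of antibody, reads were aligned at 50 bp to GRCm38/mm10 or Sscrofa11.1/susScr11, and broad peaks were kept at an irreproducible discovery rate below 0.01. Pig H3K4me3 and H3K27ac were sequenced at 50 bp and the rest at 100 bp and cropped. The submitters' processing notes name Trimmomatic 0.39, Bowtie2 2.3.5 and SAMtools 1.9, with the program that called peaks not given in the sources used here. The authors deposited 6 consensus lists of chromosome, start and end (unit: peak positions, with no score, signal or p-value), so depth and replicate spread are unknown, and results are descriptions without tests.

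Peaks were placed on RefSeq annotations of the same builds with Python 3.11.15, numpy 2.4.6 and pysam 0.24.0. A peak counted with an overlap of 1 bp or more. The windows were the gene and 200 kb on each side. The nearest coding TSS was sought within 500 kb. Sequence matches came from blastn 2.17.0, with repeats masked, at an E value of 1e-10 or lower and an effective database size of 1000000 bases, for distal H3K27ac peaks and, chosen after the peaks were seen, for H3K4me3 peaks in the genes. Promoter pairs were aligned at 1e-5 without repeat masking. The steps were tested on simulated data. Figures were drawn with matplotlib 3.10.9. The 4 genes are described in full, neighbours are named where a peak lies at their TSS or is nearest to them, and listed pathway genes are named where 1 species alone was marked in H3K4me3 or H3K27ac. A few genes are not reported here by name. The members and lists were chosen with earlier results of these data known. Alternative windows, peak subsets, overlaps and E values were tried.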

Additional observations from a re-analysis of the deposited data

How the results depend on the processing

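No paired analysis was possible because each list is a consensus with no value per replicate, and for the same reason no replicate could be left out. Of 73 alternative values for 16 results, 52 stayed within 1.5 times the reported value. H3K4me3 marked 3 or 4 of the genes in either species throughout. With the wider 50% of peaks, H3K27ac marked 2 of 4 genes in mouse, H3K4me1 marked 0 in mouse and 1 in pig, and distal H3K27ac peaks numbered 6 in mouse and 4 in pig at Disp1, 0 in mouse and 1 in pig at Smo, and 4 in pig at Sufu. H3K4me1 marked 1 gene in mouse when at least 50% of the window had to be covered, and in pig 4 genes with a window of 2.5 kb and 1 with the 5′ end alone. Placing the pig SUFU start at the match of the mouse promoter, an alternative chosen after seeing the data, gave H3K4me1 at 3 pig genes and left H3K27ac at 3. Counting only peaks nearest to the gene gave 1 in mouse and 0 in pig for Smo, 3 in mouse and 2 in pig for Sufu, and 0 in mouse for Kif7. With 100 kb on each side, Smo had 1 and Kif7 had 1 in mouse. Merging peaks under 1 kb apart gave 1 for pig SMO. Mouse distal peaks with a match ranged from 11 to 15. The single match in pig H3K27ac was lost at an E value of 1e-20 and with the wider 50% of mouse peaks, which gave 0 in each case. The unknown depth limits every statement that a peak was missing to these lists.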

Other observations

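At Ahcyl2, the neighbour downstream of Smo, an internal start carried H3K4me3 of 2356 bp from +117.3 kb to +119.6 kb of Smo in mouse without H3K27ac. In pig, an AHCYL2 start had H3K27ac of 1633 bp from +145.6 kb to +147.3 kb of SMO with H3K4me1 and without H3K4me3.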
